A study of Homo sapiens with 9 samples.

Results

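The 8 genes of the NKG2D ligand family, MICA, MICB, ULBP1, ULBP2, ULBP3, RAET1E, RAET1G and RAET1L, were chosen by symbol from the 60591 symbols in the counts table, by a rule that names the family and uses no measured value. All 8 had a row, and 5 of them passed the filter on low counts that left 15944 genes for testing. RAET1E, RAET1G and RAET1L did not pass it. Messenger RNA was sequenced from undifferentiated Caco-2 (uCaco-2) cells, a dividing human colon adenocarcinoma line used as a model of the intestinal epithelium. Control cells received fresh medium, CoCl2 cells received 300 µM cobalt(II) chloride, and OD cells received 5 µM of the oxyquinoline derivative 4896-3212. Every group, the control included, carried 0.5% DMSO and was lysed after 24 h, with 3 biological replicates per group, so replicates were cultures of 1 line. The stock concentration that the labels give for OD would carry less DMSO at this dose, so the DMSO content is printed as labelled. The study used both agents as chemical activators of hypoxia-inducible factor (HIF) in normal oxygen.

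NKG2D is an activating receptor of natural killer (NK) cells and of many cytotoxic T cells. Its ligands are relatives of MHC class I that do not present peptides, are scarce on most healthy cells and are displayed by infected, damaged or transformed cells, so that the lymphocyte can recognise a stressed target. MICA and MICB, in the MHC region, span the membrane, while ULBP1, ULBP2, ULBP3 and RAET1L are held by a glycosylphosphatidylinositol (GPI) anchor and RAET1E and RAET1G have a transmembrane segment. MICA and MICB were first described in intestinal epithelium, and ligands can also be cut from the surface by proteases. Transcript counts, as measured here, do not show how much ligand stood on the cell surface.

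MICB and ULBP2 rose with both agents, ULBP1 rose with OD alone among the control comparisons, and MICA and ULBP3 were called in no comparison with TMM scaling. A gene was called when its adjusted p in edgeR's quasi-likelihood test was under 0.05 and its log2 fold change was beyond 1 in either direction. With CoCl2, ULBP2 was 5.96-fold and MICB 2.85-fold the control level, so 2 of the 5 tested members were called higher, against 19.9% of all tested genes. None of the 5 was called lower with CoCl2, against 23.4% of all genes. With OD, ULBP1 was 5.75-fold, ULBP2 4.68-fold and MICB 2.39-fold the control level, so 3 of 5 were called higher against 9.09% of all genes, and none lower against 4.16%. The median log2 fold change of the 5 members was 0.88 with CoCl2 and 1.26 with OD, beside -0.05 and -0.01 over all tested genes. MICB and ULBP2 belong to a gene set that the study built in part on these libraries, so their direction is not independent evidence.

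The 8 genes lie in 2 clusters on chromosome 6, given here in GRCh38 coordinates of the GENCODE 44 annotation. MICA, chr6:31399784-31415315, and MICB, chr6:31494881-31511124, are both on the plus strand of the MHC region, and their coding sequences were 92.1% identical. Further along the same chromosome, ULBP2 spans chr6:149942014-149949235 and ULBP1 spans chr6:149963943-149973715, both on the plus strand. RAET1E, chr6:149883179-149898113, RAET1G, chr6:149916878-149923121, RAET1L, chr6:150018334-150025532, and ULBP3, chr6:150061053-150069121, are on the minus strand of that cluster. ULBP2 shared 96.7% of its coding bases with RAET1L and 94.6% with RAET1G, but 77.7% with ULBP1. These likenesses bear on the counting of 75-base reads. No 75-base window of the MICA or MICB canonical transcript occurred in another gene, whereas 20.8% of the windows of ULBP2 did, all of them in RAET1L or RAET1G. The share was 3.09% for ULBP1, 6.19% for ULBP3, 7.62% for RAET1G and 19.6% for RAET1L, so counts of ULBP2, RAET1G and RAET1L could be split among copies or lost, depending on how reads with several matches were treated. The 15.2% of RAET1E windows that were shared all lay in a gene that overlaps it on the same strand, not in a family copy.

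The upstream sequences of the 4 genes that moved most or are paired with one that did are shown because they show what each pair of neighbours has in common. They are the 250 bases before the start site in RefSeq's promoter table (GRCh38.p14, plus strand). For MICA the window was chr6:31403345-31403594 and for MICB chr6:31497895-31498144, each before a start site that lies inside the longer GENCODE gene span. Capitals mark a paired heat shock element, GAANNTTC or its reverse form TTCNNGAA.
MICA: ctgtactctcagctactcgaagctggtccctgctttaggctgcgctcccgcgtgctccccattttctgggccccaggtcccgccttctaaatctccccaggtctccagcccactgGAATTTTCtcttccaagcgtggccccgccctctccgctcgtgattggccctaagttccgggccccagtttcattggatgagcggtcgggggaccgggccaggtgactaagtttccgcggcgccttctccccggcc
MICB: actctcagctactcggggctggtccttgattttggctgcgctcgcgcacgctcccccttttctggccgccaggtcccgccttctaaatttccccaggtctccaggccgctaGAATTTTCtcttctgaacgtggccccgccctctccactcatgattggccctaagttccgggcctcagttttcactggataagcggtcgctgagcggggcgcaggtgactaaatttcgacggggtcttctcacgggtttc
For ULBP2 the window was chr6:149941764-149942013 and for ULBP1 chr6:149963693-149963942, and capitals mark TGACG, the core letters of a cyclic AMP response element, on either strand.
ULBP2: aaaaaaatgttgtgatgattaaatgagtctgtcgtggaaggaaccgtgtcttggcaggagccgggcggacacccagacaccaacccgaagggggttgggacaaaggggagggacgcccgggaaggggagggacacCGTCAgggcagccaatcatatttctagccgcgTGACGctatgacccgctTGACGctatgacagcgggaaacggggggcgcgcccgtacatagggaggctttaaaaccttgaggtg
ULBP1: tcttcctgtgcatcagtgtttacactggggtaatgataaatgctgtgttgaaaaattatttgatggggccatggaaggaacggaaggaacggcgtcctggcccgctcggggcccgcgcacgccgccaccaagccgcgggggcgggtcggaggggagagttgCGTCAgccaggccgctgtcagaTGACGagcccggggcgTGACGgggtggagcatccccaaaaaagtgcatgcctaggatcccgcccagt

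Matches were counted on both strands of each whole 300-base promoter, from 250 bases before the start to 50 after it. MICA and MICB each held 1 heat shock pair, at -135 and -139 from the start, and 2 HIF core motifs (ACGTG or GCGTG), and their promoters were 86.6% identical over the aligned bases. ULBP2 and ULBP1 each held 3 TGACG cores, at -115, -83 and -66 in ULBP2 and at -89, -67 and -51 in ULBP1. In both, one of them overlapped a HIF core motif in the run GCGTGACG, at -86 in ULBP2 and -54 in ULBP1. The ULBP1 and ULBP2 promoters were 64.1% identical over the aligned bases, less than ULBP1 with RAET1L (71.2%) or with RAET1G (68.6%). The RAET1G and RAET1L promoters held no heat shock pair, TGACG or HIF core motif. The ULBP3 promoter held neither the heat shock pair nor TGACG, but 6 GC boxes (GGGCGG) and 1 HIF core motif. MICA, MICB, ULBP2 and RAET1G each held 1 GC box and ULBP1 held 2. ULBP1 held 2 HIF core motifs and ULBP2 held 1. One of the RAET1E promoters held a heat shock pair, at -219. Among the 35116 RefSeq promoters of this length, 13.5% held the heat shock pair, 24.6% TGACG, 48.4% the HIF core and 45.0% the GC box. A match is a description of letters and says nothing of whether a factor was bound.

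**Figure D1:**
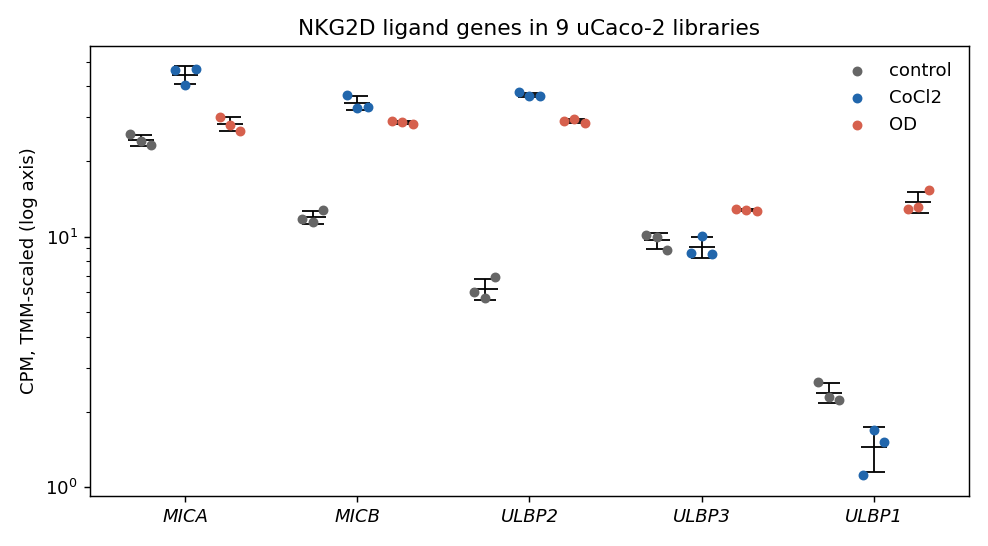
Level of the 5 tested NKG2D ligand genes in each library, in CPM (counts divided by library size, with TMM factors for composition), on a log axis. Points are the 3 libraries of a group, and black bars give their mean and SD. ULBP2 and MICB stood above control with both agents, ULBP1 stood above control with OD and below it with CoCl2, and ULBP3 overlapped control with CoCl2.

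ULBP2, a GPI-anchored ligand, showed the family's greatest log2 difference between CoCl2 and control. It had 112, 117 and 123 counts in the control libraries, 608, 471 and 699 with CoCl2, and 639, 664 and 535 with OD. Scaled to CPM with TMM factors, these were 6.02, 5.73 and 6.89 in control, 37.8, 36.4 and 36.6 with CoCl2, and 29.0, 29.4 and 28.4 with OD. All treated libraries lay above all control libraries, and every CoCl2 library lay above every OD library. The mean was 6.21 ± 0.605 CPM in control, 36.9 ± 0.740 with CoCl2 and 28.9 ± 0.492 with OD (SD, n = 3). The log2 fold change against control was 2.58 (SE 0.084, edgeR adjusted p = 2.38e-37) with CoCl2 and 2.23 (SE 0.085, edgeR adjusted p = 8.20e-33) with OD.

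MICB, a transmembrane ligand, moved the same way by less. Its counts were 219, 234 and 228 in control, 591, 425 and 630 with CoCl2, and 641, 646 and 533 with OD. In CPM these were 11.8, 11.5 and 12.8 in control, 36.7, 32.8 and 33.0 with CoCl2, and 29.1, 28.6 and 28.3 with OD. The 3 groups did not overlap, with control lowest and CoCl2 highest. Means were 12.0 ± 0.688 CPM in control, 34.2 ± 2.19 with CoCl2 and 28.7 ± 0.367 with OD (SD, n = 3). MICB rose by 1.51 on the log2 scale with CoCl2 (SE 0.076, edgeR adjusted p = 1.75e-27) and by 1.26 with OD (SE 0.076, edgeR adjusted p = 5.07e-23).

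MICA, the neighbour of MICB with a near-identical coding sequence, showed smaller differences. It had 478, 493 and 414 counts in control, 745, 523 and 891 with CoCl2, and 663, 632 and 499 with OD. The corresponding levels were 25.7, 24.1 and 23.2 CPM in control, 46.3, 40.4 and 46.7 with CoCl2, and 30.1, 28.0 and 26.5 with OD. The lowest OD library lay just above the highest control library, and the CoCl2 libraries lay clear of both groups. Means were 24.3 ± 1.26, 44.4 ± 3.50 and 28.2 ± 1.77 CPM (SD, n = 3). With CoCl2 the level was 1.83-fold that of control (log2 0.88, SE 0.067, edgeR adjusted p = 8.01e-19), which passed the adjusted p but not the fold threshold. With OD it was 1.16-fold (log2 0.21, SE 0.069, edgeR adjusted p = 0.0049), again below the fold threshold, and without OD replicate 1 the edgeR adjusted p was 0.0552.

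ULBP1, a GPI-anchored ligand whose gene is a known target of the transcription factor ATF4, was the member on which the agents differed most. It had 49, 47 and 40 counts in control, 18, 22 and 29 with CoCl2, and 285, 298 and 289 with OD. In CPM the control libraries stood at 2.63, 2.30 and 2.24, the CoCl2 libraries at 1.12, 1.70 and 1.52, and the OD libraries at 12.9, 13.2 and 15.4. The order from CoCl2 to control to OD held with no overlap. Means were 2.39 ± 0.211 CPM in control, 1.45 ± 0.298 with CoCl2 and 13.8 ± 1.34 with OD (SD, n = 3). ULBP1 rose by 2.52 on the log2 scale with OD (SE 0.126, edgeR adjusted p = 8.06e-27). With CoCl2 its level was 1.66-fold lower than in control (log2 -0.73, SE 0.215, edgeR adjusted p = 0.00152), inside the fold threshold. When libraries were scaled by size alone that difference was -1.24 and was called, while DESeq2 on the 6 libraries of the comparison gave an adjusted p of 0.0549.

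ULBP3, another GPI-anchored ligand, was called against control with neither agent. Its counts were 190, 204 and 158 in control, 139, 131 and 163 with CoCl2, and 285, 290 and 238 with OD. On the CPM scale these were 10.2, 9.99 and 8.85 in control, 8.63, 10.1 and 8.54 with CoCl2, and 12.9, 12.9 and 12.7 with OD. Control and CoCl2 libraries overlapped, and the OD libraries lay above both. The log2 fold change with CoCl2 was -0.10 with a 95% interval from -0.31 to 0.10 (edgeR adjusted p = 0.343). By library size alone it was -0.61 (edgeR adjusted p = 7.01e-07), still inside the fold threshold. With OD it was 0.40 (SE 0.092, edgeR adjusted p = 0.000118), a 1.32-fold difference below the fold threshold. By adjusted p alone, 4 of the 5 members differed from control with CoCl2, against 83.2% of all tested genes, and 5 of 5 with OD, against 65.6%.

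RAET1E, RAET1G and RAET1L gave too few counts for the main fit. RAET1E had no count in any control or CoCl2 library and 1, 1 and 0 with OD. A summed count of 0 over a group allows a level of up to 0.0527 CPM in control and 0.0623 CPM with CoCl2, and no fold is given. RAET1G had 1 count in each control library, 4, 2 and 8 with CoCl2, and 5, 4 and 4 with OD. Ratios of summed counts were scaled by library size and TMM factor together. For RAET1G, with 14 against 3 reads, the ratio was 5.52 for CoCl2 over control (exact 95% counting interval 1.54 to 29.9). For OD, with 13 reads, it was 3.89 (1.07 to 21.3). RAET1L had 0, 2 and 0 counts in control, 2, 1 and 4 with CoCl2, and 3, 3 and 4 with OD, with ratios of 4.14 (0.788 to 40.8) and 4.49 (0.956 to 42.1). Intervals and limits cover counting error only. Both genes share windows with ULBP2, whose own counts were higher in the same libraries, and the part of that sharing in these few reads was not tested. RAET1G also overlaps the antisense gene RAET1E-AS1 over 9.29% of its exon bases.

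Set directly against each other, CoCl2 and OD differed in ULBP1 by 9.57-fold, the lower level being with CoCl2 (log2 -3.26, SE 0.148, edgeR adjusted p = 9.97e-30). This was the 1 member called lower of 5, against 23.8% of all tested genes, and none was called higher, against 17.5%. By adjusted p alone all 5 differed, against 83.5% of all genes. MICA was 1.58-fold higher with CoCl2 than with OD (log2 0.66, SE 0.065, edgeR adjusted p = 2.01e-14), but by library size alone the difference was 0.11 (edgeR adjusted p = 0.0974). ULBP3 was 1.42-fold lower with CoCl2 than with OD (log2 -0.51, SE 0.097, edgeR adjusted p = 3.67e-06). The differences in MICB (log2 0.25, SE 0.066, edgeR adjusted p = 0.000402) and ULBP2 (log2 0.35, SE 0.064, edgeR adjusted p = 1.72e-06) turned to -0.29 and -0.20 when libraries were scaled by size alone. The agents were given at 1 dose each, 300 µM and 5 µM, so these differences hold for those doses. The 2 control comparisons share the same control libraries. Exact two-sided permutation tests gave 0.1 for each pair of groups of these members that did not overlap, the smallest p that 3 against 3 allows, and 0.3 for ULBP3 with CoCl2.

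**Figure D2:**
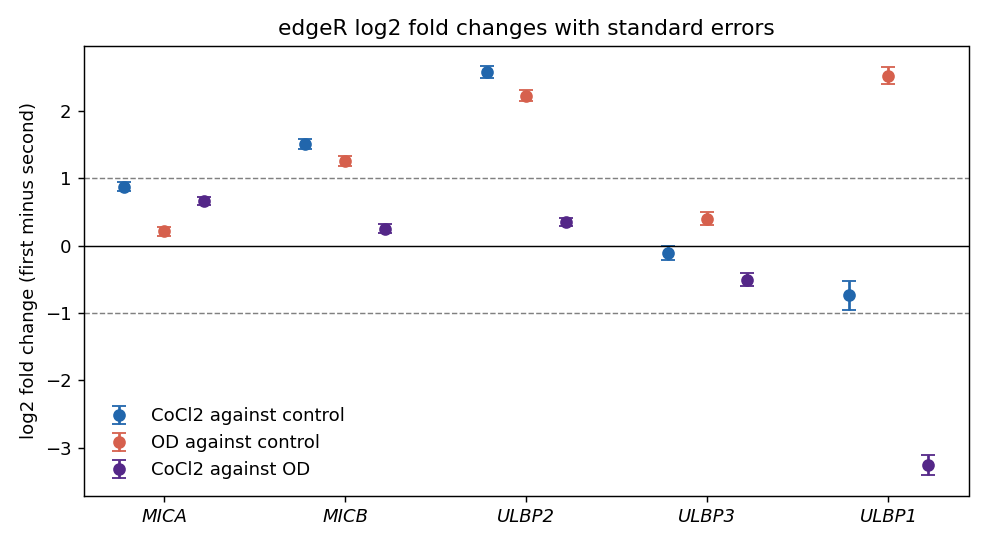
Log2 fold change of the 5 tested members in each comparison, first group minus second, from edgeR. Points are estimates, bars are standard errors, and dashed lines mark the fold threshold of 1 in either direction. ULBP1 lies at 2.52 for OD against control and at -3.26 for CoCl2 against OD, while ULBP2 and MICB lie past the upper line for both agents against control.

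The make-up of the family's RNA shifted as well. Levels were set per kilobase (kb) of each gene's canonical transcript, so that genes of different length can be compared. In control, MICA led with 17.8 ± 0.918 CPM per kb, followed by MICB with 4.97 ± 0.285 and ULBP2 with 4.65 ± 0.453, whose libraries overlapped. ULBP3 followed with 3.11 ± 0.234 and ULBP1 with 0.745 ± 0.066 CPM per kb. With CoCl2 the order was MICA at 32.4 ± 2.55, ULBP2 at 27.7 ± 0.554, MICB at 14.1 ± 0.908, ULBP3 at 2.92 ± 0.286 and ULBP1 at 0.450 ± 0.093 CPM per kb. ULBP1 then overlapped the far less abundant RAET1G at 0.238 ± 0.117. With OD, ULBP2 at 21.7 ± 0.368 and MICA at 20.6 ± 1.30 overlapped at the top, MICB followed at 11.9 ± 0.152, and ULBP1 at 4.31 ± 0.416 overlapped ULBP3 at 4.12 ± 0.045 CPM per kb (SD, n = 3 in each).

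As a share of the family's summed CPM per kb, MICA took 56.7 ± 1.81% in control, 41.6 ± 1.77% with CoCl2 and 32.7 ± 1.39% with OD. ULBP2 took 14.9 ± 1.55%, 35.5 ± 1.03% and 34.5 ± 0.630% in the same order. ULBP1 took 2.38 ± 0.148%, 0.581 ± 0.141% and 6.86 ± 0.797% (SD, n = 3). With canonical transcript lengths the shares of ULBP2 were thus close with both agents. That of MICA fell with both, further with OD, while that of ULBP1 fell with CoCl2 and rose with OD. The summed level was 31.3 ± 0.845 CPM per kb in control, 78.0 ± 3.28 with CoCl2 and 62.9 ± 1.28 with OD, or 2.49-fold and 2.01-fold the control level. The order depended on the length used for MICA, whose canonical transcript has 1370 bases and whose annotated exons together cover 3851. With the exon length, ULBP2 led with both agents, at 27.7 and 21.7 CPM per kb, and MICA stood at 11.5 with CoCl2 and 7.32 with OD, while MICA still led in control at 6.32. MICA's share was then 33.0% in control, 20.9% with CoCl2 and 15.3% with OD. That of ULBP2 was 24.3%, 50.2% and 45.2% in the same order, so its shares with the agents were further apart than by canonical lengths.

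**Figure D3:**
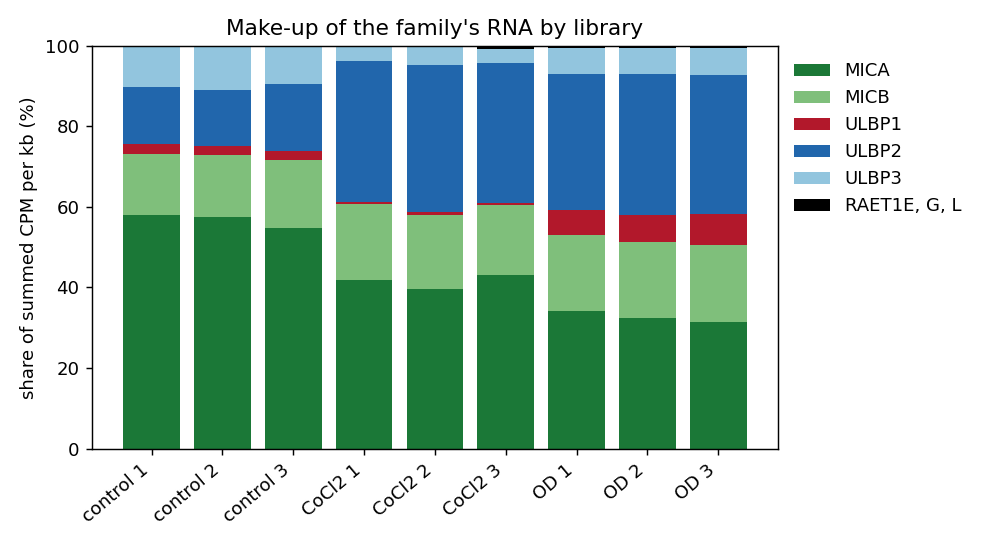
Share of each member in the summed CPM per kb of the 8 genes, in percent, with 1 bar per library and canonical transcript lengths. MICA holds 54.7 to 58.1% in the control libraries, ULBP2 holds 33.8 to 36.7% in the treated libraries, and ULBP1 is widest with OD.

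The genes whose pattern over the 9 libraries was most like each member were found among the 13427 tested genes that averaged 1 CPM or more. Likeness was the mean absolute difference of log2 CPM after each gene was centred on its own mean. For ULBP2 the nearest were DUSP5, a phosphatase of ERK kinases (0.050), S100P, a calcium-binding protein (0.073), and KLF4, a transcription factor of epithelial cells (0.086). For MICB they included EPHB3, an ephrin receptor (0.052), and HKDC1, a hexokinase-like protein (0.067). For ULBP1 they were UNC5B, a netrin receptor (0.107), PTGES, a prostaglandin E synthase (0.185), and FBXL16, an F-box protein (0.190), so no gene matched ULBP1 as closely as those of the other members did. For MICA they were SDF2 (0.039), the tetraspanin CD63 (0.040) and BAG6, a chaperone that is itself a ligand of the NK receptor NKp30 (0.043). For ULBP3 they were PIGG, an enzyme of GPI anchor synthesis (0.054), RHBDD1, a rhomboid protease (0.055) and the catenin CTNND1 (0.061). Counting noise enters this measure, and ULBP1 had only 40 to 49 counts in control and 18 to 29 with CoCl2. The part of such noise in its looser match was not tested.

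Genes that act on the ligands or beside them were described from lists. Standard errors of called genes in the shedding, inhibitory-ligand and regulator lists were 0.040 to 0.101 (log2), except 0.129 for HLA-G and 0.315 for CLEC2D, and all of them passed edgeR's adjusted p. Calls in these lists stand beside 19.9% of all tested genes called higher and 23.4% lower with CoCl2, and 9.09% and 4.16% with OD. Of the receptor side, KLRK1, which encodes NKG2D, and its adaptors HCST and TYROBP had at most 1 count in any library, and none of the 3 was tested. Of 5 tested genes for ligand shedding, the proteases ADAM9 (log2 1.59) and ADAM17 (log2 1.41) rose with CoCl2, and the membrane protease MMP14 rose with OD (log2 1.24). The list's median was 0.60 with CoCl2 and 0.40 with OD. Scaled by library size alone, ADAM17 stood at 0.90 and was not called, and the list's median with CoCl2 was 0.09. Of 4 inhibitors of such proteases, TIMP1 rose with CoCl2 (log2 1.12) and OD (log2 1.69), from only 3 to 8 counts in control and with SE of 0.464 and 0.402, and TIMP2 rose with OD (log2 1.36). The change of TIMP1 with CoCl2 was 0.62 by library size alone and was not called. TIMP2 was lower with CoCl2 than with OD (log2 -1.51). Of 5 tested subunits of the GPI transamidase, which attaches the anchor of the ULBP proteins, none was called with OD and 1, PIGU (log2 -1.72), fell with CoCl2, a gene named here after its value was seen. By library size alone 2 of these subunits were called lower with CoCl2, and their median was -0.996 in place of -0.49.

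Other ligands read by NK cells were compared with the family. Of 6 tested ligands of other activating receptors, the integrin ligand ICAM1 rose with CoCl2 (log2 1.03) and with OD (log2 1.07), and the list's medians were 0.18 and 0.27. ICAM1 was not called with CoCl2 under upper-quartile factors (0.93) or library size alone (0.52), and the median with CoCl2 turned to -0.33 under the latter. Of 8 ligands of inhibitory receptors, 5 rose with CoCl2, among them the MHC class I genes HLA-B (log2 1.86), HLA-C (1.97), HLA-E (2.09) and HLA-G (1.37), with a list median of 1.27. With OD 1 of 8, HLA-E, rose (log2 1.05), a share near the 9.09% of all genes, and the median was 0.65. Between the agents HLA-B, HLA-C and HLA-E were higher with CoCl2 (log2 1.00, 1.30 and 1.05) and CLEC2D, the ligand of the inhibitory receptor CD161, was lower (log2 -1.61). By library size alone HLA-B, HLA-C and HLA-E were still called with CoCl2, HLA-G (0.86) was not, and none of the 8 was called higher with CoCl2 than with OD (1 under upper-quartile factors). The HLA genes are alike in sequence and vary between people, so their separate counts are uncertain.

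Regulators that have been linked to NKG2D ligand genes, among them heat shock factors, ATF4, E2F factors and the DNA damage kinases ATM and ATR, formed a list of 24 tested genes. With CoCl2, JUN (log2 1.72), EPAS1 (1.30), HDAC3 (1.25), RBM4 (1.24), SP1 (1.20), RELA (1.14) and HSF2 (1.04) rose, while ATM (log2 -1.71), E2F1 (-1.68) and ATR (-1.66) fell. With OD, EPAS1, which encodes HIF-2α, rose (log2 1.11) and ATR fell (log2 -1.39). The list's medians were 0.31 and -0.06. With 7 of 24 higher and 3 lower with CoCl2, and 1 each way with OD, the calls are to be read beside the shares over all genes (19.9% higher and 23.4% lower with CoCl2), and nothing is drawn from them about the regulators as a group. By library size alone JUN was the only one called higher with CoCl2, 7 were called lower and the median turned to -0.19. RBM4, an RNA-binding protein known to act on the splicing of ULBP1, was higher with CoCl2 than with OD (log2 1.47), under library size alone by 0.93.

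Transcripts that serve as readouts of 4 stress pathways showed where the agents differed, and the genes below are named after their values were seen. Of all tested genes, 19.9% passed both thresholds upward with CoCl2, 9.09% with OD and 17.5% for CoCl2 against OD. Downward, the shares were 23.4%, 4.16% and 23.8% in the same order. Calls in the 4 readout lists are to be read beside these shares. All 8 heat shock genes rose with CoCl2, with a median log2 fold change of 3.54, from 1.07 for HSPB1 to 7.26 for HSPA1A and, for HSPA6, from 1 count in each control library to between 2673 and 4025. With OD the median was -0.50, HSPA6 rose to between 5 and 12 counts, and HSPH1 fell (log2 -1.11). Of 7 genes of the integrated stress response, which works through ATF4, ATF3, DDIT3, SESN2 and PPP1R15A rose with CoCl2 and ATF3, CHAC1, ASNS, SESN2 and PPP1R15A with OD, with medians of 1.47 and 1.46. Between the agents, CHAC1 (log2 -1.65) and ASNS (log2 -1.33) were called lower with CoCl2, while SESN2 (log2 1.29) and PPP1R15A (log2 2.50) were called higher. ATF3 (log2 0.56), DDIT3 (0.69), TRIB3 (-0.10) and ATF4 itself (0.36) stayed inside the fold threshold. Of 7 p53 targets, CDKN1A, MDM2, GDF15, BBC3 and TNFRSF10B rose with CoCl2 and CDKN1A, GDF15 and BBC3 with OD, with medians of 1.37 and 0.72. BTG2 was lower with CoCl2 (log2 -0.93), inside the fold threshold, but was called lower under upper-quartile factors (-1.03) and library size alone (-1.43). RRM2B was called with neither agent (log2 0.28 with CoCl2 and -0.25 with OD). Of 7 tested HIF targets all rose with CoCl2 (median 2.51), and NDRG1, VEGFA, PDK1, ANKRD37 and BNIP3 rose with OD (median 3.03). EGLN3 (log2 0.35) and ADM (log2 -0.46) were not called with OD, and ADM was the 1 HIF target called between the agents, higher with CoCl2 by 3.80. By library size alone, 7 of the 8 heat shock genes, 3 integrated stress genes, 3 p53 targets and 5 HIF targets were called higher with CoCl2. What part any of these pathways had in the ligand genes was not tested.

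**Figure D4:**
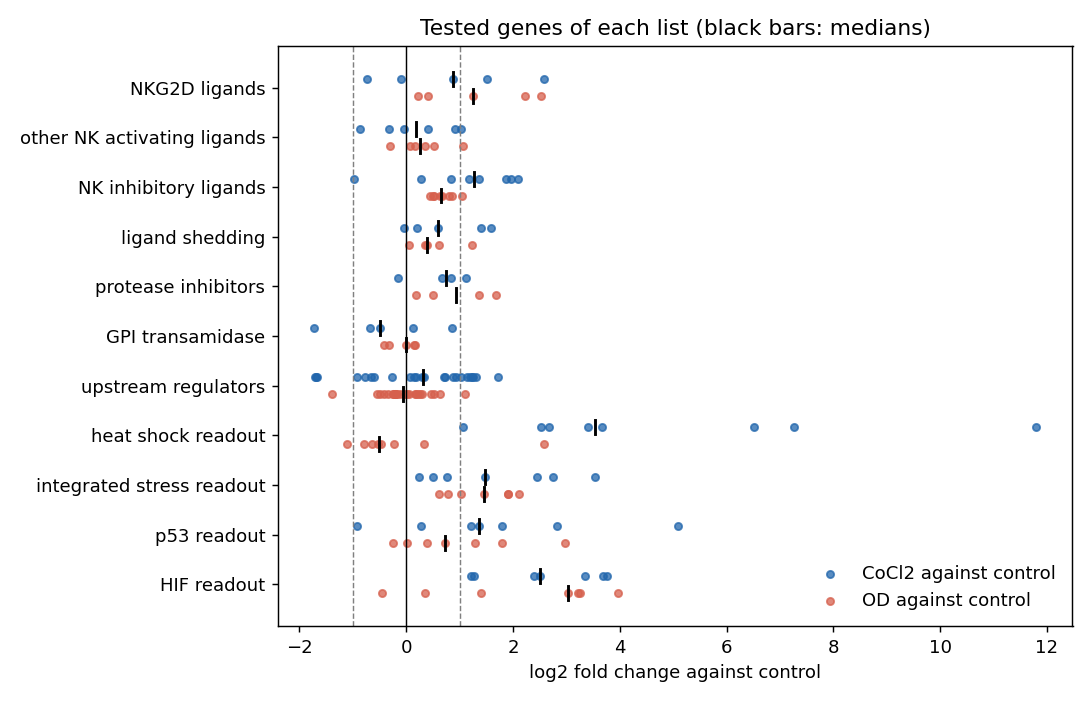
Log2 fold change against control of every tested gene in the family and in 10 other lists, with CoCl2 in blue and OD in red. Black bars are list medians and dashed lines mark 1 in either direction. The family's medians are 0.88 and 1.26, the inhibitory ligands reach 2.09 with CoCl2, and the heat shock genes lie apart with CoCl2. The point farthest right is HSPA6, whose fitted value rests on 1 count per control library.

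Among related pseudogenes and neighbours of the 2 clusters, 2 of the 8 with a row in the table were tested. The pseudogene MICE had 2 to 5 counts in control, 7 to 8 with CoCl2 and 22 to 29 with OD, and rose with both (log2 1.49, SE 0.534, and 2.87, SE 0.409), although under library size alone the CoCl2 change was not called. RAET1K, a pseudogene that shares 97 windows with ULBP1, had 14 to 24 counts in control, 8 to 12 with CoCl2 and 31 to 38 with OD. It was lower with CoCl2 than with OD (log2 -1.42), the direction of ULBP1, but at far fewer counts than the 285 to 298 of ULBP1 with OD.

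The libraries held 15998136 to 24209427 counts, and replicates of every group differed by more than sampling noise. TMM factors were 0.770 to 0.795 with CoCl2 and 1.11 to 1.15 elsewhere, and without them all tested genes together had a median of -0.55 (log2) with CoCl2 and 0.03 with OD. Of 10 epithelial markers, CDX1 had no count and the others were present, with a summed level of 10794.9 to 11323 CPM in control, 12889.7 to 13819.8 with CoCl2 and 10127.9 to 10682.9 with OD. Of the 9 tested, 7 had a positive log2 fold change with CoCl2, with a median of 0.28 (-0.22 by library size alone). With CoCl2, 1 was called higher and 2 lower, against 19.9% and 23.4% of all tested genes. VIL1 (log2 -2.45) and KRT20 (log2 -1.44) were those that fell. LGALS4 was the one that rose (log2 1.66, SE 0.675), from 5 to 9 counts in control to 6 to 33 with CoCl2. It had 17 to 23 counts with OD. The 10 lymphocyte markers summed to 38 to 41 counts in control, 19 to 43 with CoCl2 and 76 to 84 with OD. Of these, PRF1, the perforin gene, gave 34 to 44 with OD against 3 to 4 in control. CD8A, the other of the 2 tested, gave 25 to 29 in control, 8 to 18 with CoCl2 and 19 to 27 with OD. PTPRC gave 0 to 3 in any library. The 8 stromal and endothelial markers summed to 20.8 to 25.4 CPM in control, 13.4 to 14.4 with CoCl2 and 31.2 to 32.3 with OD. Of the 5 tested, PDGFRB fell (log2 -2.31) and VWF rose (log2 1.61, from 6 to 8 counts in control) with CoCl2. With OD, LUM rose (log2 1.78, from 4 to 8 counts in control). The marker genes singled out here were named after their values were seen, and their part in the ligand values was not tested. Fewer cells and less RNA per cell cannot be told apart in such bulk samples.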

How the data were processed

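The sources used here state that the authors checked reads with FastQC 0.11.9, trimmed adapters with cutadapt 2.10 and mapped 75-base single-end reads of stranded mRNA libraries to GRCh38.p13 with STAR 2.7.5b. They deposited raw counts per gene symbol for the 9 libraries. The counting program, its strand setting and its treatment of reads with several matches were not given in the sources used here. Fits used edgeR 4.0.16 in R 4.3.3 with filterByExpr, TMM factors, 1 mean per condition over all 9 libraries and robust quasi-likelihood tests, with Benjamini-Hochberg adjustment over 15944 genes. The thresholds for a call (adjusted p of 0.05, 1 on the log2 scale) were those of the study, and its tool DESeq2 (1.42.0 here) was an alternative. CPM are TMM-scaled. Permutation tests used log2(CPM + 0.5). Of the 60591 symbols, 24486 had no count. Depth was 15998136 to 24209427 counts per library, so single counts weigh heavily for the RAET1 genes.

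Alternatives were RLE, upper-quartile or no composition factors, other filters, only the libraries compared, DESeq2, a replicate block, each replicate left out, adjusted p alone and a test against the fold threshold. The fit was also run on simulated counts, in which far fewer genes changed than were called with CoCl2. That run therefore does not bear on the shift in composition with CoCl2. The rule for the members uses no measured value, but it and the lists were chosen with earlier results of these data known. All 8 members were named. List genes were named where called in the receptor, shedding, inhibitor, regulator, NK ligand and neighbour lists, and as nearest patterns the 3 closest genes per member. Some genes under these rules are not reported here. Motifs, lengths and shared windows came from GENCODE 44 and RefSeq. The dCaco-2 libraries, protein data and other cohorts of the study were not analysed here.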

Additional observations from a re-analysis of the deposited data

How the results depend on the processing

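Over all alternatives the log2 fold change kept its sign against control for each of the 5 tested members, from 2.07 to 2.65 for ULBP2 and 1.01 to 1.56 for MICB with CoCl2, and from 2.45 to 2.61 for ULBP1, 2.16 to 2.30 for ULBP2 and 1.22 to 1.30 for MICB with OD. Library size alone moved most: 1 member, ULBP1 (-1.24), was then called lower with CoCl2, 2 members, ULBP1 and ULBP3 (-1.05), were called lower with CoCl2 than with OD, and MICB (-0.29) and ULBP2 (-0.20) reversed between the agents. With adjusted p alone, 1 member was lower with CoCl2, 5 were higher with OD, and between the agents 3 were higher and 2 lower with CoCl2. DESeq2 on the 6 libraries compared gave ULBP1 with CoCl2 an adjusted p of 0.0549, and MICA with CoCl2 against OD was 0.11 by library size alone. Leaving out any 1 library changed no count of called members. The summed level of the family, with alternatives chosen after seeing the data, was 2.87-fold and 2.50-fold control with exon lengths and 1.75-fold and 2.07-fold by library size alone. Without the filter, RAET1G was also called higher with CoCl2 (log2 2.25, edgeR adjusted p = 0.0216), which made 3 members in place of 2, and with OD its adjusted p was 0.112. The numbers did not pair the samples, since correlations of same-numbered libraries ran from -0.018 to 0.067, and with a replicate block 2 members were called higher with CoCl2 and 3 with OD. Depth limits the RAET1 genes most, at 0 to 8 counts per library.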
